A study of Mus musculus with 12 samples.

Results

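Activity-dependent immediate early genes are genes that cells transcribe within minutes of a stimulus, without first having to make new protein. A list of 40 of them was followed through brain tissue of mice with and without a cerebrovascular injury. The list was matched by gene symbol in each expression table, and all 40 were found among the 25749 genes listed. It holds 19 transcription factors, from the AP-1 and ATF, Egr, Nr4a, Npas4 and Klf families, and 21 effectors, whose products act at synapses, on signalling pathways, in growth and stress responses or in the circadian clock.

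The samples were total RNA from brains of 12 male B6 mice aged 13 weeks, with 1 library per mouse and 4 mice in each of 3 groups. One group was uninjured, one was injured, and one was injured and continuously given αLFA1/VLA4, antibodies against 2 integrins that white blood cells use to leave the blood. All mice were perfused with saline. A cube of tissue with edges of 3 mm was taken on day 20 after injury, and the labels give neither the method of injury, the position of the cube in uninjured mice, nor a control antibody. No group carried a transgene or a gene deletion. The group given antibodies is called antibody-treated from here on.

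In neurons, calcium entry and growth factor receptors activate kinases that phosphorylate CREB and the SRF partner proteins already bound at these genes, and transcription starts at once. The transcription factors made in this way then switch on later genes, while effectors such as Arc and Homer1 alter synapses and the Dusp phosphatases shut the kinases off again. The same genes also respond in glia, vessels and blood cells to injury, growth factors and stress hormones, and several are raised by handling or tissue dissection.

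On day 20 after injury, more of the immediate early genes were higher than lower in injured against uninjured tissue. Between antibody-treated and uninjured tissue 11 of the 40 passed the test. The other 29 did not pass, which does not show that their levels were equal. Arc, Junb, Dusp1, Btg2 and Ier2 had the largest rises among the members that were also lower in antibody-treated than in injured mice. Homer1, Bdnf, Nr4a3, Klf10 and Per2 fell with injury, and all 5 were higher in antibody-treated than in injured mice. Once a trend with base composition and exon length was removed, the falls of Homer1, Bdnf and Klf10 and the rise of Bdnf did not pass, and the injury values of Homer1 and Bdnf were just above 0. The rises of Egr4, Npas4, Klf2, Dusp5, Ier3, Gadd45g and Per1 with injury did not pass then either. Atf3, Maff, Klf2 and Dusp5 were higher in antibody-treated than in uninjured mice. In counts, 22 of the 40 members rose and 7 fell in injured against uninjured mice, where 11.9% of all 14771 genes tested rose and 11% fell. In antibody-treated against uninjured mice, 9 members rose and 2 fell, against 6.3% and 3.22% of all genes. Between antibody-treated and injured mice, 7 members were higher and 15 lower, against 10.9% and 10.7% of all genes. The 3 comparisons share groups, so they are not independent of each other.

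Levels within a gene are given as normalised CPM, exon read counts scaled to the effective library size, for the 4 libraries of a group in the order of their replicate numbers. Differences are log2 fold changes, positive where the group named first is higher. The SE is the standard error, and each adjusted p comes from edgeR's quasi-likelihood test with Benjamini-Hochberg adjustment over all genes tested. A trend-corrected value is the log2 fold change after a trend with GC content and exon length was removed from each library. For the immediate early genes it is given where it ends a call or differs from the uncorrected value by over 1.5 times. For genes of the other lists no trend-corrected value is given, so its absence there does not show that a call held. In whole tissue, fewer cells of a type and less RNA per cell cannot be told apart.

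Exon reads per library ranged from 13330379 to 16121577 and were lowest in the antibody-treated group. The defining neuron markers of the labelled tissue were present. Their summed level over 10 markers was 9422 to 9713 normalised CPM in the uninjured, 8408 to 8969 in the injured and 8602 to 8785 in the antibody-treated libraries. On that scale the uninjured libraries were wholly above the others. Reads from the mitochondrial genome made up 10.3% to 12.01% of exon reads in uninjured, 4.75% to 7.99% in injured and 8.83% to 11.01% in antibody-treated libraries. TPM is a share of all transcripts, so it moves with that share, and its part in the TPM values was not tested. In TPM the neuron marker sums were 7220 to 7775 in the uninjured, 7257 to 7999 in the injured and 6751 to 7480 in the antibody-treated libraries, and the groups overlapped. Summed over the 40 members, TPM was 1234 to 1339 in the uninjured, 1798 to 2078 in the injured and 1363 to 1468 in the antibody-treated libraries. The sum of their normalised CPM was 1755 to 1777, 2089 to 2133 and 1859 to 1928 in the same order. On either scale the 3 groups did not overlap, with antibody-treated libraries in between.

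Promoters are shown for 5 members whose response is central below: Fos, Nr4a1, Btg2 and Dusp1, which rose with injury, and Nr4a3, which fell. They are RefSeq sequences on build GRCm38, upstream of the start site and trimmed where an annotated exon begins. Capitals mark the CREB element TGACGTCA or its part TGACG, found on either strand, where CGTCA is TGACG on the other strand. Every TGACGTCA also contains TGACG.
Fos, chr12:85473650-85473889, plus strand: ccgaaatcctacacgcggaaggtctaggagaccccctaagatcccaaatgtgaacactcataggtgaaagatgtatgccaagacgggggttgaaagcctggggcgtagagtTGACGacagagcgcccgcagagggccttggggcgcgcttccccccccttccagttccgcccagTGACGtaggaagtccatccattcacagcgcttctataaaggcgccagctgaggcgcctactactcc
Nr4a1, chr15:101266606-101266845, plus strand: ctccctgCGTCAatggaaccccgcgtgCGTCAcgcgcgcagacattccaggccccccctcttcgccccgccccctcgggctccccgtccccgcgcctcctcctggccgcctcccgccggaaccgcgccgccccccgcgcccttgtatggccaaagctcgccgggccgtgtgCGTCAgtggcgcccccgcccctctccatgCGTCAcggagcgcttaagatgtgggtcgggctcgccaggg
Nr4a3, chr4:48045065-48045152, plus strand: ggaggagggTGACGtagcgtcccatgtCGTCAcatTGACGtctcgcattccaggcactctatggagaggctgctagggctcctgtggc
Btg2, chr1:134079156-134079395, minus strand: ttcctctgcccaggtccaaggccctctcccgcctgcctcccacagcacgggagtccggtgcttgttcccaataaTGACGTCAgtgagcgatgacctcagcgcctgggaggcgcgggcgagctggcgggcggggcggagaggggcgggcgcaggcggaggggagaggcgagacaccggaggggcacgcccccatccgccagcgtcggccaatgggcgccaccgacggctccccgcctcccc
Dusp1, chr17:26508520-26508712, minus strand: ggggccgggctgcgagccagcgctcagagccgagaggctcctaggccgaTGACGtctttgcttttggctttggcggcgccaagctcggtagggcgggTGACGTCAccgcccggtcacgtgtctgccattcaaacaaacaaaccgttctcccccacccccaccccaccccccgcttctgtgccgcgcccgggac
The whole element stands in the windows of Btg2 and Dusp1, and only its part in those of Fos, Nr4a1 and Nr4a3. TGACG stands in both Nr4a1 and Nr4a3, whose exon reads went in opposite directions after injury.

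The motifs were counted in all windows of 300 bases, 250 before and 50 after the start site, that RefSeq holds for the members. These were 44 promoters of 30 members, since some genes have several start sites. TGACGTCA was in 4 of them, 9.09%, against 1.79% of 32851 promoters of all genes: those of Btg2, Dusp1, Maff and Plk2. The part TGACG was in 25 of 44, or 56.8%, against 20.8% of all promoters, and by gene in 21 of the 30 members. The Egr site GCGGGGGCG was in 5, or 11.4%, against 2.91%, at Fosb, Fosl2, Klf2, Klf4 and Nr4a1. The AP-1 site TGANTCA was in 1 member promoter, of Bdnf, which is 2.27% against 7.81%. The CArG box, the SRF site, was in 5 promoters of Egr2 and Dusp5, or 11.4% against 1.63%. Some Egr2 windows overlap and hold the same CArG box, so by gene this is 2 of 30 members. These matches describe the windows only. A match is not a measured binding site.

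**Figure D1:**
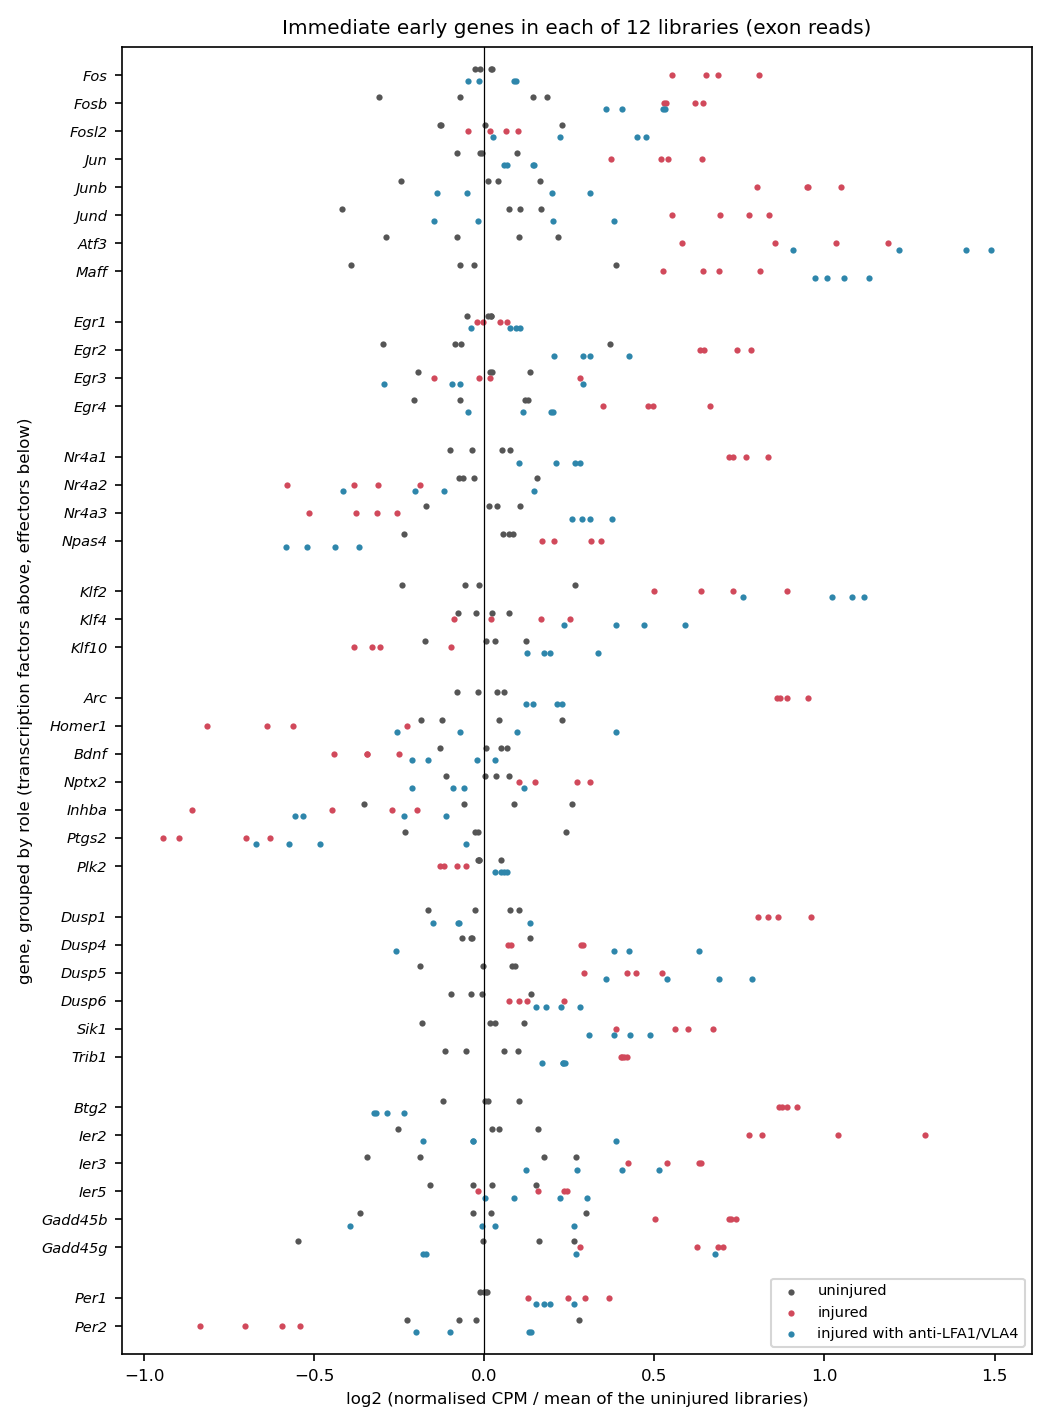
Each row is 1 of the 40 genes and each point 1 library, placed at the log2 ratio of its normalised CPM to the mean of the 4 uninjured libraries. Injured libraries lie right of 0 for most AP-1, signalling and growth genes and left of 0 for Homer1, Ptgs2 and Per2. Antibody-treated libraries lie farthest right on average for Klf2, Atf3 and Maff, and overlap injured libraries for Klf2 and Atf3.

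Among the 8 AP-1 and ATF genes, 6 rose in injured against uninjured mice and none fell, with a median log2 fold change of 0.67 against 0.025 for all genes tested. In antibody-treated against injured mice 4 of the 8 fell and none rose. Of all genes tested, 11.9% rose and 11% fell with injury, and 10.9% rose and 10.7% fell in the second comparison. AP-1 is a pair of proteins, one from the Fos family and one from the Jun family, that binds DNA together.

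Fos (chr12:85473890-85477273) is the classical marker of recently active neurons. Its normalised CPM was 22.9, 23.7, 23.7 and 23.1 in the uninjured, 40.9, 36.7, 37.6 and 34.3 in the injured and 24.9, 23.1, 24.8 and 22.6 in the antibody-treated libraries. All injured libraries were above all others, and the uninjured and antibody-treated libraries overlapped. Fos differed by 0.68 log2 units (SE 0.068, adjusted p = 9.36e-05) between injured and uninjured, by -0.65 log2 units (SE 0.068, adjusted p = 5.91e-05) between antibody-treated and injured and by 0.03 log2 units (SE 0.069, adjusted p = 0.791) between antibody-treated and uninjured mice.

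Jun (chr4:95049034-95052222), Junb (chr8:84974484-84978718) and Jund (chr8:70698949-70700616) encode the partners of Fos proteins. Jun measured 48.2, 50.7, 50.5 and 54.4 normalised CPM in the uninjured, 65.9, 73.01, 74.1 and 79.4 in the injured and 56.4, 53.1, 53.4 and 56.2 in the antibody-treated libraries. Junb measured 37.6, 45.8, 49.9 and 44.95 in the uninjured, 77.6, 86.1, 85.9 and 92.1 in the injured and 51.2, 43.04, 40.5 and 55.2 in the antibody-treated libraries. Jund, which many cells express constantly, measured 76.4, 109.7, 115 and 107 in the uninjured, 149.5, 182, 165 and 175 in the injured and 117, 101, 92.1 and 133 in the antibody-treated libraries. For all 3 genes the injured libraries were the highest 4 and the other groups overlapped. Jun rose by 0.52 log2 units (SE 0.066, adjusted p = 0.000562) with injury and fell by 0.42 log2 units (SE 0.066, adjusted p = 0.00114) in antibody-treated against injured mice. Junb rose by 0.94 log2 units (SE 0.11, adjusted p = 0.000302) with injury and fell by 0.85 log2 units (SE 0.11, adjusted p = 0.000241) in antibody-treated against injured mice. Jund rose by 0.72 log2 units (SE 0.13, adjusted p = 0.00479) and fell by 0.60 log2 units (SE 0.13, adjusted p = 0.00722) in these comparisons. All these calls held after trend correction, mostly at a smaller size. With injury the trend-corrected values were 0.32 (adjusted p = 0.000743) for Jun, 0.54 (adjusted p = 1.18e-06) for Junb and 0.23 (adjusted p = 0.00158) for Jund. In antibody-treated against injured mice they were -0.27 (adjusted p = 0.00163) for Jun and -0.23 (adjusted p = 0.00112) for Jund. Each of these genes overlaps another annotated gene, Junos, Prdx2 and Gm11175 respectively, and the sources used here do not state whether counting used the strand.

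Fosb (chr7:19302696-19310051), whose shortened product accumulates with repeated stimulation, followed another pattern. It measured 8.54, 7.37, 6.24 and 8.79 normalised CPM in the uninjured, 11.1, 11.9, 11.2 and 12.1 in the injured and 9.92, 10.2, 11.1 and 11.2 in the antibody-treated libraries. Both injured groups were wholly above the uninjured libraries and overlapped each other. Fosb differed from uninjured by 0.58 log2 units (SE 0.10, adjusted p = 0.00408) in injured and 0.46 log2 units (SE 0.11, adjusted p = 0.0155) in antibody-treated mice, and by -0.13 log2 units (SE 0.10, adjusted p = 0.406) between those 2 groups. The antibody-treated call was lost without uninjured replicate 2 (adjusted p 0.0521).

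Atf3 (chr1:191170296-191218039), a stress factor that marks injured neurons, was expressed at a low level. Its normalised CPM was 1.14, 1.24, 1.01 and 0.872 in the uninjured, 1.59, 2.18, 1.93 and 2.43 in the injured and 2.84, 2.99, 1.996 and 2.48 in the antibody-treated libraries. These rest on 13 to 19, 25 to 41 and 28 to 42 reads per library. The uninjured libraries were the lowest 4, and the other groups overlapped. Atf3 differed from uninjured by 0.93 log2 units (SE 0.20, adjusted p = 0.0092) in injured and by 1.27 log2 units (SE 0.20, adjusted p = 0.00103) in antibody-treated mice.

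Maff (chr15:79346621-79359076), a small Maf protein that pairs with other leucine zipper factors, had the fewest reads of all members. Its reads were 12, 9, 9 and 7 in the uninjured, 17, 16, 16 and 15 in the injured and 17, 17, 18 and 18 in the antibody-treated libraries. In normalised CPM this was 0.807, 0.587, 0.604 and 0.47 in the uninjured, 1.08, 0.996, 0.964 and 0.888 in the injured and 1.24, 1.21, 1.28 and 1.35 in the antibody-treated libraries. On that scale the 3 groups did not overlap, with the antibody-treated libraries highest. Maff rose by 1.03 log2 units (SE 0.20, adjusted p = 0.00727) in antibody-treated against uninjured mice, while 0.66 log2 units (SE 0.20, adjusted p = 0.0753) for injured against uninjured did not pass. Fosl2, the remaining Fos family gene, passed in no exon comparison. It averaged 25.2 ± 3.05 normalised CPM (SD, n = 4) in the uninjured, 25.8 ± 1.12 in the injured, and 31.1 ± 4.45 in mice given antibodies.

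The Egr genes encode zinc finger factors that couple kinase signalling to later plasticity genes. Of the 4, Egr2 and Egr4 rose with injury, and Egr1 and Egr3, the most abundant, did not pass. Egr1 averaged 242 ± 5.80 normalised CPM (SD, n = 4) in the uninjured, 246 ± 7.13 in the injured, and 253 ± 11.3 in mice given antibodies. Egr1 differed by 0.022 log2 units (SE 0.052, adjusted p = 0.778) in injured against uninjured mice. Egr3 averaged 108 ± 10.1, 111 ± 14.3 and 106 ± 18.6, and its groups overlapped in every comparison.

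Egr2 (chr10:67535475-67542188) measured 6.45, 8.73, 5.50 and 6.37 normalised CPM in the uninjured, 10.5, 11.6, 11.3 and 10.6 in the injured and 7.80, 8.40, 8.27 and 9.08 in the antibody-treated libraries. Egr4 (chr6:85511121-85513589) measured 20.6, 25.8, 25.97 and 22.6 in the uninjured, 30.2, 33.5, 33.1 and 37.6 in the injured and 27.2, 25.7, 22.95 and 27.3 in the antibody-treated libraries. For both genes the injured libraries were the highest 4. Egr2 rose by 0.70 log2 units (SE 0.12, adjusted p = 0.00344) with injury and fell by 0.39 log2 units (SE 0.12, adjusted p = 0.0324) in antibody-treated against injured mice. The second call for Egr2 was lost without injured replicate 1, 2, 3 or 4 or antibody-treated replicate 1, 2 or 3 (adjusted p 0.0521 to 0.087). Egr4 rose by 0.50 log2 units (SE 0.095, adjusted p = 0.00522) with injury and fell by 0.38 log2 units (SE 0.095, adjusted p = 0.0128) in antibody-treated against injured mice, a call that was lost without injured replicate 4 (adjusted p 0.053). Both calls of Egr4 were lost after trend correction, at 0.029 (adjusted p = 0.802) with injury and 0.037 (adjusted p = 0.732) against injured mice.

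The Nr4a genes encode orphan nuclear receptors, and Npas4 encodes a factor induced by calcium entry in neurons that controls inhibitory synapses. These 4 split after injury: Nr4a1 and Npas4 rose, and Nr4a2 and Nr4a3 fell. Nr4a1 (chr15:101254269-101274795) measured 60.1, 67.9, 62.8 and 66.8 normalised CPM in the uninjured, 109.7, 106, 107 and 115 in the injured and 74.6, 77.6, 69.1 and 78.3 in the antibody-treated libraries. No groups overlapped, and the antibody-treated libraries lay between the others. Nr4a1 differed by 0.76 log2 units (SE 0.062, adjusted p = 1.29e-05) between injured and uninjured, by -0.55 log2 units (SE 0.062, adjusted p = 0.000104) between antibody-treated and injured and by 0.22 log2 units (SE 0.062, adjusted p = 0.0441) between antibody-treated and uninjured mice. The last of these 3 calls was lost without uninjured replicate 1, 2, 3 or 4 or antibody-treated replicate 1, 2 or 4 (adjusted p 0.0595 to 0.134) and after trend correction, at 0.14 (adjusted p = 0.0508).

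Nr4a3 (chr4:48045153-48086447) measured 31.3, 29.3, 25.8 and 29.9 normalised CPM in the uninjured, 24.3, 22.4, 23.4 and 20.4 in the injured and 35.5, 36.1, 37.7 and 34.8 in the antibody-treated libraries. Its injured libraries were the lowest and its antibody-treated libraries the highest 4, with no overlap. Nr4a3 fell by 0.36 log2 units (SE 0.077, adjusted p = 0.00877) with injury and was higher by 0.67 log2 units (SE 0.077, adjusted p = 0.000111) in antibody-treated than in injured mice. Against uninjured mice the antibody-treated mice were higher by 0.31 log2 units (SE 0.076, adjusted p = 0.022), a call that was lost without uninjured replicate 2 or 3 or antibody-treated replicate 1 or 2 (adjusted p 0.0526 to 0.0661). Nr4a2, the family member known for dopamine neurons, averaged 41.6 ± 3.20 normalised CPM (SD, n = 4) in the uninjured, 32.5 ± 3.62 in the injured, and 37.97 ± 6.20 in mice given antibodies. Nr4a2 fell by 0.36 log2 units (SE 0.11, adjusted p = 0.0385) with injury, a call that was lost without uninjured replicate 1, 2 or 4 or injured replicate 2, 3 or 4 (adjusted p 0.0614 to 0.117).

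Npas4 (chr19:4984355-4990316) measured 21.7, 26.6, 26.9 and 27.1 normalised CPM in the uninjured, 28.8, 32.4, 31.8 and 29.5 in the injured and 18.9, 17.1, 17.8 and 19.8 in the antibody-treated libraries. All antibody-treated libraries were below all others, and all injured libraries above. In antibody-treated mice Npas4 fell by 0.74 log2 units (SE 0.085, adjusted p = 0.000131) against injured and fell by 0.48 log2 units (SE 0.086, adjusted p = 0.00331) against uninjured mice. It rose by 0.26 log2 units (SE 0.083, adjusted p = 0.0406) with injury, a call that was lost without uninjured replicate 1, 2 or 4 or injured replicate 1, 2, 3 or 4 (adjusted p 0.0557 to 0.126) and after trend correction, at 0.072 (adjusted p = 0.54).

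The Klf genes encode zinc finger factors. Klf2 and Klf4 are best known from vessel endothelium, and Klf10 from growth factor responses. Klf2 (chr8:72319033-72321656) measured 6.59, 5.80, 6.78 and 8.25 normalised CPM in the uninjured, 9.68, 12.7, 11.4 and 10.7 in the injured and 13.9, 14.5, 11.6 and 14.9 in the antibody-treated libraries. The uninjured libraries were the lowest 4, and the other groups overlapped. Klf2 differed from uninjured by 0.70 log2 units (SE 0.12, adjusted p = 0.00417) in injured and by 1.001 log2 units (SE 0.12, adjusted p = 0.000177) in antibody-treated mice. The first of these did not pass after trend correction, at 0.31 (adjusted p = 0.0904). The summed level of 8 endothelial markers was 275 to 286 normalised CPM in the uninjured, 253 to 265 in the injured and 266 to 283 in the antibody-treated libraries. In TPM these sums were 205 to 216, 233 to 256 and 227 to 263, with uninjured lowest, so their direction depended on the scale. Klf4 averaged 5.17 ± 0.228 normalised CPM (SD, n = 4) in the uninjured, 5.51 ± 0.577 in the injured, and 6.94 ± 0.708 in mice given antibodies, and was higher in the last against uninjured by 0.43 log2 units (SE 0.11, adjusted p = 0.0252). This call was lost without uninjured replicate 1, 2 or 3 or antibody-treated replicate 1 or 2 (adjusted p 0.0568 to 0.072). Against injured mice Klf4 was higher by 0.33 log2 units (SE 0.11, adjusted p = 0.0401), which was lost without injured replicate 2 or 3 or antibody-treated replicate 1, 2 or 3 (adjusted p 0.0664 to 0.107). Klf10 averaged 29.3 ± 2.48, 24.2 ± 2.16 and 33.9 ± 2.15 in the same order. Klf10 fell by 0.28 log2 units (SE 0.085, adjusted p = 0.0349) with injury, with overlapping libraries, a call that was lost without uninjured replicate 1, 2 or 4 or injured replicate 2, 3 or 4 (adjusted p 0.0674 to 0.104) and after trend correction, at -0.19 (adjusted p = 0.0747). It was higher by 0.49 log2 units (SE 0.085, adjusted p = 0.00202) in the antibody-treated than in injured mice.

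**Figure D2:**
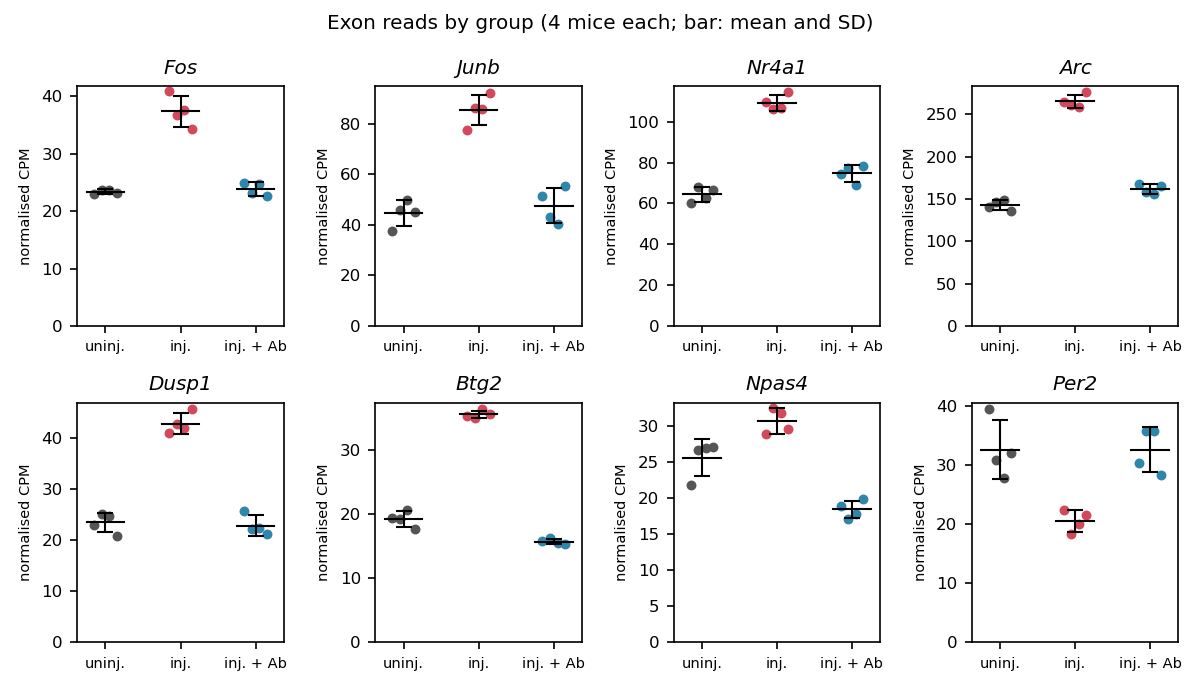
Points show the normalised CPM of exon reads for 8 members in each of 4 mice per group, with the mean and SD as bars and axes starting at 0. Injured mice are highest for 7 of the 8 genes and lowest for Per2, and antibody-treated mice are lowest for Btg2 and Npas4.

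Among the 7 synaptic and secreted effectors, Arc rose with injury, Homer1, Bdnf and Ptgs2 fell, and the other 3 did not pass. Arc (chr15:74669083-74672570) encodes a capsid-like protein that removes AMPA receptors from synapses, and its RNA travels to active dendrites. It measured 141, 147, 149 and 135 normalised CPM in the uninjured, 264, 261, 259 and 276 in the injured and 167, 158, 156 and 166 in the antibody-treated libraries. No groups overlapped, and antibody-treated libraries lay nearer to the uninjured. Arc rose by 0.89 log2 units (SE 0.054, adjusted p = 8.3e-07) with injury and fell by 0.71 log2 units (SE 0.053, adjusted p = 2.86e-06) in antibody-treated against injured mice. Between antibody-treated and uninjured mice it differed by 0.18 log2 units (SE 0.053, adjusted p = 0.0525), which did not pass.

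Homer1 (chr13:93299635-93405129) encodes a scaffold of glutamate receptors, and activity induces a short form that ends within an intron of the gene. Its normalised CPM was 181, 142, 136 and 159 in the uninjured, 132, 99.3, 105 and 87.8 in the injured and 147, 165, 202 and 129 in the antibody-treated libraries. All injured libraries were below all uninjured ones, and the antibody-treated libraries overlapped both. Homer1 fell by 0.54 log2 units (SE 0.15, adjusted p = 0.0218) with injury and was higher by 0.60 log2 units (SE 0.15, adjusted p = 0.0122) in antibody-treated than in injured mice. The fall was lost without uninjured replicate 1 or 4 or injured replicate 2 or 4 (adjusted p 0.0568 to 0.0728). After trend correction it was not present, at 0.035 (adjusted p = 0.717), and the rise was 0.24 (adjusted p = 0.00741). The tables give 1 value per gene, so the short form was not separated.

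Bdnf, a neurotrophin released by active neurons, averaged 25.99 ± 1.57 normalised CPM (SD, n = 4) in the uninjured, 20.5 ± 1.10 in the injured, and 24.5 ± 1.96 in mice given antibodies. Bdnf fell by 0.34 log2 units (SE 0.077, adjusted p = 0.0107) with injury and was higher by 0.26 log2 units (SE 0.077, adjusted p = 0.0324) in the antibody-treated than in injured mice. The latter call was lost without injured replicate 2, 3 or 4 or antibody-treated replicate 1 or 3 (adjusted p 0.054 to 0.0859). Neither passed after trend correction, at 0.015 (adjusted p = 0.939) with injury and 0.013 (adjusted p = 0.947) against injured mice. Ptgs2 (chr1:150100031-150108227), the inducible cyclooxygenase, measured 13.98, 11.6, 10.1 and 11.7 in the uninjured, 7.64, 6.35, 7.29 and 6.15 in the injured and 7.95, 8.47, 11.4 and 7.43 in the antibody-treated libraries. Its injured libraries were all below the uninjured ones, and the antibody-treated libraries overlapped both. Ptgs2 fell by 0.79 log2 units (SE 0.14, adjusted p = 0.00424) with injury, the largest fall among the 40 members, and antibody-treated mice differed from injured by 0.36 log2 units (SE 0.15, adjusted p = 0.0904). The trend-corrected fall was -0.44 (adjusted p = 0.00487).

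Nptx2, a secreted pentraxin that gathers AMPA receptors, averaged 43.1 ± 2.34 normalised CPM (SD, n = 4) in the uninjured, 49.8 ± 3.44 in the injured, and 41.4 ± 3.96 in mice given antibodies. Nptx2 fell by 0.27 log2 units (SE 0.079, adjusted p = 0.0296) in antibody-treated against injured mice. This call was lost without injured replicate 2, 3 or 4 or antibody-treated replicate 1, 2 or 3 (adjusted p 0.052 to 0.104) and after trend correction, at -0.08 (adjusted p = 0.226). Plk2, a kinase that weakens overactive synapses, averaged 178 ± 4.004, 166 ± 4.09 and 184 ± 1.84. Its libraries were close together within each group, and a difference as small as 0.15 log2 units (SE 0.047, adjusted p = 0.0416) passed between antibody-treated and injured mice, although it was lost without injured replicate 1, 2, 3 or 4 or antibody-treated replicate 1, 2 or 4 (adjusted p 0.0506 to 0.0865) and after trend correction, at 0.078 (adjusted p = 0.101). Inhba, the activin subunit, passed in no comparison and averaged 8.15 ± 1.42, 6.08 ± 1.16 and 6.41 ± 0.983.

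The signalling brakes are phosphatases of MAP kinases, the kinase Sik1, which restrains CREB coactivators, and the pseudokinase Trib1. Of these 6, 4 rose with injury and none fell, against 11.9% and 11% of all genes. In antibody-treated against injured mice 2 fell, against 10.7% of all genes. Dusp1 (chr17:26505590-26562128), which inactivates p38, JNK and ERK, measured 23.1, 25.2, 24.8 and 20.9 normalised CPM in the uninjured, 41.01, 42.8, 41.9 and 45.7 in the injured and 25.8, 22.3, 22.3 and 21.2 in the antibody-treated libraries. The injured libraries were the highest 4, and the other groups overlapped. Dusp1 rose by 0.87 log2 units (SE 0.08, adjusted p = 4.14e-05) with injury and fell by 0.90 log2 units (SE 0.081, adjusted p = 1.49e-05) in antibody-treated against injured mice. Its annotated span overlaps Ergic1 and 3 other genes, so some of its reads are uncertain.

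Dusp5 (chr19:53529109-53542431), which acts on ERK in the nucleus, measured 10.7, 11.3, 11.4 and 9.39 normalised CPM in the uninjured, 13.1, 15.4, 14.6 and 14.3 in the injured and 17.3, 13.7, 15.5 and 18.5 in the antibody-treated libraries. Sik1 (chr17:31844250-31855804) measured 8.34, 9.58, 10.3 and 9.66 in the uninjured, 13.9, 12.4, 14.3 and 15.1 in the injured and 12.3, 12.7, 13.3 and 11.7 in the antibody-treated libraries. For both genes the uninjured libraries were the lowest 4 and the other groups overlapped. Dusp5 differed from uninjured by 0.42 log2 units (SE 0.10, adjusted p = 0.0148) in injured and by 0.60 log2 units (SE 0.10, adjusted p = 0.00228) in antibody-treated mice. The first of these did not pass after trend correction, at 0.17 (adjusted p = 0.182). Sik1 differed by 0.56 log2 units (SE 0.089, adjusted p = 0.00237) in injured and by 0.40 log2 units (SE 0.091, adjusted p = 0.0135) in antibody-treated against uninjured mice.

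Trib1 averaged 18.4 ± 1.27 normalised CPM (SD, n = 4) in the uninjured, 24.4 ± 0.11 in the injured, and 21.4 ± 0.461 in mice given antibodies. The 4 injured libraries lay within a very narrow range. Trib1 rose by 0.41 log2 units (SE 0.064, adjusted p = 0.00235) with injury, and fell by 0.19 log2 units (SE 0.064, adjusted p = 0.0481) in antibody-treated against injured mice. This second call was lost when any 1 of the 8 libraries was left out (adjusted p 0.0551 to 0.152) and after trend correction, at -0.036 (adjusted p = 0.756). Dusp4 and Dusp6, nuclear and cytoplasmic ERK phosphatases, passed in no comparison. Dusp6 averaged 50.3 ± 3.55, 55.3 ± 2.77 and 58.2 ± 2.29, and Dusp4 averaged 5.93 ± 0.387, 6.74 ± 0.575 and 7.46 ± 1.79.

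The growth and stress genes restrain proliferation or respond to damage. Of these 6, 5 rose with injury and none fell, against 11.9% and 11% of all genes, with a median log2 fold change of 0.63. Btg2 (chr1:134075170-134079120), an antiproliferative factor that speeds messenger RNA decay, measured 19.4, 19.3, 20.7 and 17.7 normalised CPM in the uninjured, 35.3, 35.1, 36.4 and 35.7 in the injured and 15.8, 16.4, 15.5 and 15.4 in the antibody-treated libraries. The groups did not overlap, and the antibody-treated libraries were the lowest 4. Btg2 rose by 0.89 log2 units (SE 0.063, adjusted p = 4e-06) with injury. In antibody-treated mice it fell by 1.18 log2 units (SE 0.064, adjusted p = 9.48e-08) against injured, the largest difference of that comparison among the members, and fell by 0.29 log2 units (SE 0.066, adjusted p = 0.0137) against uninjured mice.

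Ier2 (chr8:84661331-84662852), a short nuclear protein made from 1 exon, had the largest rise with injury among the members. It measured 7.33, 8.86, 9.73 and 8.99 normalised CPM in the uninjured, 14.97, 21.4, 15.4 and 17.9 in the injured and 8.53, 8.54, 7.70 and 11.4 in the antibody-treated libraries. The injured libraries were the highest 4, with injured replicate 2 above the rest. Ier2 rose by 0.996 log2 units (SE 0.14, adjusted p = 0.00145) and fell by 0.95 log2 units (SE 0.14, adjusted p = 0.000856) in antibody-treated against injured mice. Its trend-corrected rise was 0.60 (adjusted p = 0.00046). Ier3 (chr17:35821684-35822923), which modulates ERK signalling and cell survival, measured 4.64, 7.10, 6.64 and 5.17 in the uninjured, 7.90, 9.15, 8.55 and 9.11 in the injured and 7.80, 7.11, 6.42 and 8.41 in the antibody-treated libraries. Its injured libraries were above the uninjured ones, and the antibody-treated libraries overlapped both. Ier3 rose by 0.56 log2 units (SE 0.13, adjusted p = 0.0141) with injury, a call that was lost without injured replicate 4 (adjusted p 0.05001) and after trend correction, at 0.27 (adjusted p = 0.0774). Ier5 passed in no comparison and averaged 82.4 ± 7.43 normalised CPM (SD, n = 4), 91.98 ± 7.45 and 91.98 ± 8.49.

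Gadd45b (chr10:80930073-80932204) and Gadd45g (chr13:51846678-51848468) encode small stress proteins that act in DNA demethylation and MAP kinase control. Gadd45b measured 6.99, 8.80, 11.1 and 9.13 normalised CPM in the uninjured, 12.7, 14.8, 14.9 and 15.03 in the injured and 9.19, 8.96, 6.84 and 10.8 in the antibody-treated libraries. Gadd45g measured 8.07, 13.2, 14.2 and 11.7 in the uninjured, 14.3, 19.2, 18.97 and 18.2 in the injured and 14.2, 10.5, 10.4 and 18.8 in the antibody-treated libraries. Injured libraries were above the uninjured ones for both genes, narrowly so for Gadd45g. Gadd45b rose by 0.67 log2 units (SE 0.14, adjusted p = 0.00876) with injury and fell by 0.68 log2 units (SE 0.14, adjusted p = 0.00558) in antibody-treated against injured mice. Its trend-corrected rise was 0.35 (adjusted p = 0.00677). Gadd45g rose by 0.58 log2 units (SE 0.20, adjusted p = 0.0495) with injury, a call that was lost without uninjured replicate 1, 2 or 4 or injured replicate 2, 3 or 4 (adjusted p 0.0679 to 0.137) and after trend correction, at 0.18 (adjusted p = 0.195). It differed by -0.39 log2 units (SE 0.20, adjusted p = 0.173) between antibody-treated and injured mice.

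Per1 and Per2, repressors of the circadian clock that light and stress hormones also induce, went in opposite directions after injury. Per1 averaged 72.04 ± 0.445 normalised CPM (SD, n = 4) in the uninjured, 86.4 ± 5.99 in the injured, and 82.6 ± 2.82 in mice given antibodies. Per1 rose by 0.26 log2 units (SE 0.059, adjusted p = 0.0109) with injury, a call lost after trend correction, at 0.062 (adjusted p = 0.355). Per2 (chr1:91415982-91459324) measured 39.5, 30.9, 27.8 and 32.00 in the uninjured, 22.4, 18.2, 20.00 and 21.5 in the injured and 30.3, 35.6, 35.8 and 28.3 in the antibody-treated libraries. Its injured libraries were the lowest 4, and the other groups overlapped. Per2 fell by 0.66 log2 units (SE 0.12, adjusted p = 0.00364) with injury and was higher by 0.66 log2 units (SE 0.12, adjusted p = 0.00202) in antibody-treated than in injured mice. The labels give no time of day for tissue collection.

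Set side by side, 11 of 19 transcription factors rose and 3 fell with injury, with a median log2 fold change of 0.52. Of the 21 effectors, 11 rose and 4 fell, with a median of 0.26. In antibody-treated against uninjured mice, 7 transcription factors rose and 1 fell (median 0.21), while 2 effectors rose and 1 fell (median 0.058). Against injured mice, 3 transcription factors rose and 8 fell (median -0.070), and 4 effectors rose and 7 fell (median -0.065). The medians of all genes tested were 0.025, 0.011 and 0.013 in these comparisons. The shares of all genes called higher and lower were 11.9% and 11%, 6.3% and 3.22%, and 10.9% and 10.7% in the same order. The counts of effectors in antibody-treated against uninjured mice are near that share. Without overlap between libraries, 24 members were higher and 7 lower in injured against uninjured mice, where 17.4% and 12.9% of all genes were. The same counts were 14 and 2 for antibody-treated against uninjured mice (9.01% and 6.56% of all genes) and 6 and 14 against injured mice (10.6% and 11.4%). No test compared the classes with each other.

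Levels can be compared between genes only per transcript length, so TPM is used here. In uninjured mice the highest mean TPM belonged to Plk2, at 152 ± 3.47 (SD, n = 4), followed by Jund at 146 ± 23.9, Egr1 at 129 ± 2.57 and Arc at 112 ± 1.34. The means of Plk2 and Egr1 lay within 1 SD of that of Jund, so its place between them is not beyond the spread. In injured mice Jund led at 269 ± 25.4, followed by Arc at 233 ± 19.02, and Plk2 stood at 159 ± 6.02. Antibody-treated mice had Jund at 159 ± 17.6 and Plk2 at 158 ± 8.26, ahead of Egr1 at 136 ± 13.02 and Arc at 127 ± 3.70, with Jund and Plk2 within their spread. The lowest mean TPM was that of Maff in every group, 0.568 ± 0.128 in the uninjured, 1.01 ± 0.0672 in the injured and 1.18 ± 0.0757 in the antibody-treated mice. On the TPM scale Arc was 111, 114, 112 and 110.4 in the uninjured, 229.8, 213, 229 and 259 in the injured and 128, 125, 132 and 123 in the antibody-treated libraries.

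Intron reads gave a further readout of the same libraries. Total RNA holds unspliced RNA, so reads over introns follow newly made transcripts more closely than exon reads do. They were far fewer, and 20 of the 40 members had enough for a test, among 11279 genes. The other 20 include Jun, Ier2 and Ier5, whose genes have 1 exon. With injury 1 member, Per1, rose and none fell, against 0.142% and 0.346% of all genes. In antibody-treated against uninjured mice none rose and 2, Nr4a1 and Npas4, fell, against 0.47% and 0.204%. In antibody-treated against injured mice Homer1 rose and 6 members fell, Fosl2, Egr1, Nr4a1, Arc, Dusp1 and Per1, against 5.4% and 4.1% of all genes.

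Per1 had 107, 74, 77 and 88 intron reads in the uninjured, 164, 144, 154 and 177 in the injured and 48, 56, 65 and 38 in the antibody-treated libraries. No groups overlapped, with injured libraries highest and antibody-treated lowest. Per1 intron reads differed by 0.74 log2 units (SE 0.12, adjusted p = 0.00304) between injured and uninjured and by -1.26 log2 units (SE 0.12, adjusted p = 1.56e-05) between antibody-treated and injured mice. Its exon reads did not pass between the latter groups, at -0.065 log2 units (SE 0.059, adjusted p = 0.457). After trend correction these exon reads passed as higher, opposite to the intron reads, at 0.22 (adjusted p = 0.0024).

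Arc had 31, 46, 40 and 35 intron reads in the uninjured, 68, 61, 68 and 74 in the injured and 19, 19, 20 and 17 in the antibody-treated libraries. Antibody-treated libraries had the fewest reads and injured libraries the most, without overlap. The intron reads of Arc differed by -1.48 log2 units (SE 0.20, adjusted p = 0.00063) between antibody-treated and injured mice and by 0.68 log2 units (SE 0.18, adjusted p = 0.0942), which did not pass, between injured and uninjured mice. Dusp1 had 28 to 34, 43 to 57 and 14 to 24 intron reads per library, and differed by -0.98 log2 units (SE 0.20, adjusted p = 0.00887) between antibody-treated and injured mice. Other annotated genes, Ergic1 among them, overlap the span of Dusp1, so its intron reads are uncertain too.

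Egr1, whose exon reads passed in no comparison with TMM scaling, had 22, 11, 7 and 20 intron reads in the uninjured, 17, 13, 19 and 21 in the injured and 5, 4, 2 and 6 in the antibody-treated libraries. In reads the antibody-treated libraries were the lowest 4. Intron reads of Egr1 differed by -1.64 log2 units (SE 0.40, adjusted p = 0.0168) between antibody-treated and injured mice, with few reads behind the value, where exon reads differed by 0.038 log2 units (SE 0.052, adjusted p = 0.639). Fosl2 likewise passed on intron reads and not on exon reads with all libraries kept. Its intron reads were 14, 13, 4 and 3 in the uninjured, 21, 10, 14 and 17 in the injured and 2, 3, 5 and 2 in the antibody-treated libraries, a difference of -1.97 log2 units (SE 0.45, adjusted p = 0.0139) between antibody-treated and injured mice. After trend correction the exon reads of both genes passed as higher, opposite to their intron reads, at 0.26 (adjusted p = 0.00037) for Egr1 and 0.40 (adjusted p = 0.00091) for Fosl2. Exon reads of Fosl2 also passed without antibody-treated replicate 4, at 0.35 log2 units (adjusted p = 0.0202).

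Nr4a1 had 412, 313, 241 and 348 intron reads in the uninjured, 431, 330, 393 and 473 in the injured and 160, 158, 297 and 107 in the antibody-treated libraries. Intron reads of Nr4a1 in antibody-treated mice fell by 0.85 log2 units (SE 0.14, adjusted p = 0.00315) against injured and fell by 0.67 log2 units (SE 0.14, adjusted p = 0.0325) against uninjured mice, while its exon reads were higher than in uninjured mice. Npas4 had 72, 74, 43 and 40 intron reads in the uninjured, 44, 34, 49 and 44 in the injured and 20, 19, 16 and 22 in the antibody-treated libraries. Its intron reads fell by 1.32 log2 units (SE 0.24, adjusted p = 0.0175) in antibody-treated against uninjured mice, and after injury they stood at -0.56 log2 units (SE 0.21, adjusted p = 0.204), below 0, although exon reads rose. These 2 calls against uninjured mice are unstable: leaving out 1 library left 0 to 3 members called. Homer1 intron reads were 78 to 118, 53 to 107 and 73 to 129 per library, and rose by 0.61 log2 units (SE 0.19, adjusted p = 0.0485) in antibody-treated against injured mice. Gm47075 and Gm47088, annotated on the same strand, overlap the span of Homer1, so some of its reads are uncertain.

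**Figure D3:**
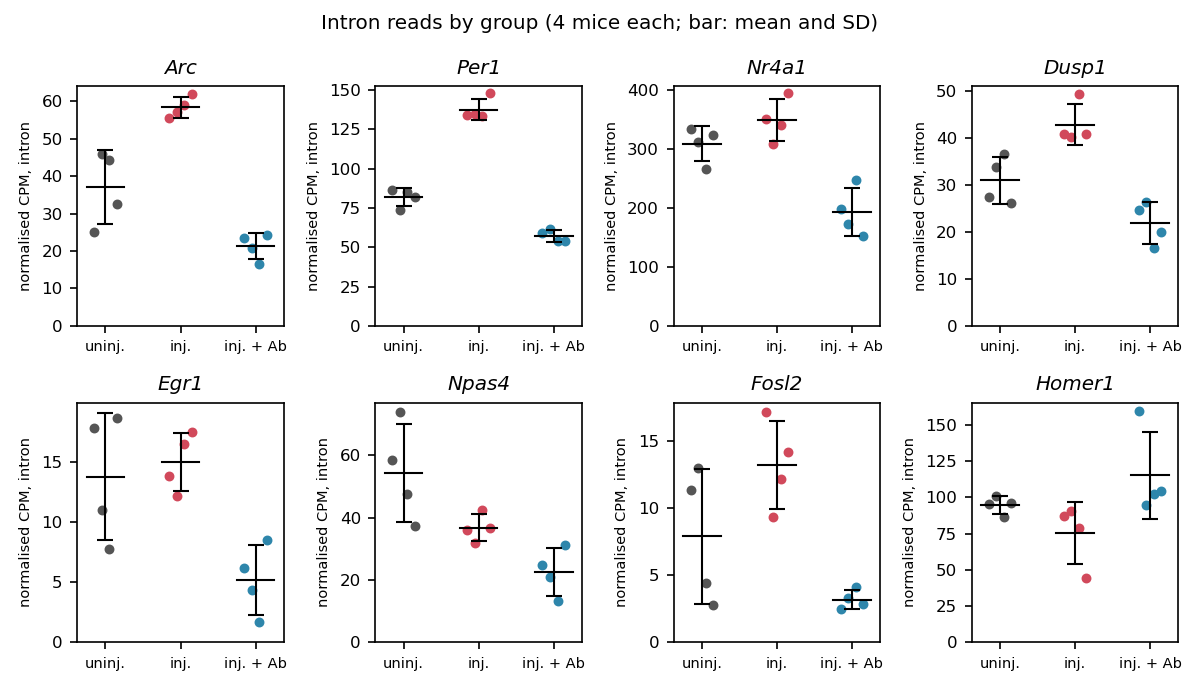
Points show the normalised CPM of intron reads for 8 members in each of 4 mice per group, with the mean and SD as bars and axes starting at 0. Antibody-treated mice are lowest on average for every gene shown except Homer1, for which they are highest on average. Injured mice stand apart above uninjured mice for Arc, Per1 and Dusp1.

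The genes around this response were read from lists. Their calls are given with all libraries kept and without trend correction. Whether each call holds after trend correction, or with a library left out, was not examined gene by gene. Of 46 upstream kinases, calcium channels, glutamate receptors and constitutive activators such as Creb1 and Srf, 9 were higher and 12 lower with injury (19.6% and 26.1% of the list, against 11.9% and 11% of all genes). Between antibody-treated and uninjured mice none was higher and 5 were lower (10.9%, against 3.22% of all genes). Against injured mice 5 were higher and 11 lower (10.9% and 23.9%, against 10.9% and 10.7%). Map2k2, a kinase of the ERK cascade, rose by 0.48 log2 units (SE 0.14, adjusted p = 0.0328) and Rps6ka1, a kinase downstream of ERK, by 0.32 log2 units (SE 0.085, adjusted p = 0.0207) with injury. Rps6ka3, another kinase downstream of ERK, fell by 0.60 log2 units (SE 0.19, adjusted p = 0.0375) with injury. Camkk2, a calcium-dependent kinase, fell by 0.53 log2 units (SE 0.071, adjusted p = 0.000337) and Camk4, which phosphorylates CREB, fell by 0.56 log2 units (SE 0.16, adjusted p = 0.0451) in antibody-treated against uninjured mice. Grin1, the obligatory NMDA receptor subunit, fell by 0.44 log2 units (SE 0.054, adjusted p = 0.000201) against injured mice, while Elk4, an SRF partner, rose by 0.40 log2 units (SE 0.085, adjusted p = 0.0062).

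Of 48 other genes induced by activity or growth factors, 47 were tested. With injury 10 rose and 7 fell (21.3% and 14.9%, against 11.9% and 11% of all genes). Between antibody-treated and uninjured mice 8 rose and 2 fell (17.0% and 4.26%, against 6.3% and 3.22%), and against injured mice 12 rose and 5 fell (25.5% and 10.6%, against 10.9% and 10.7%). Ccn1, a matrix protein induced through SRF, averaged 5.85 normalised CPM in the uninjured, 12.02 in the injured and 5.95 in the antibody-treated mice. Ccn1 rose by 1.04 log2 units (SE 0.096, adjusted p = 4.14e-05) with injury and fell by 1.01 log2 units (SE 0.097, adjusted p = 2.83e-05) in antibody-treated against injured mice. Cebpb rose by 0.91 log2 units (SE 0.22, adjusted p = 0.0155) with injury, while Pcsk1, a prohormone convertase, fell by 0.63 log2 units (SE 0.21, adjusted p = 0.0446) and Klf9 fell by 0.51 log2 units (SE 0.10, adjusted p = 0.00611). In antibody-treated against uninjured mice Cebpd was at 0.77 log2 units (SE 0.17, adjusted p = 0.0141), Gadd45a at 0.70 log2 units (SE 0.19, adjusted p = 0.0334), Rgs4 at -0.43 log2 units (SE 0.051, adjusted p = 0.000118) and Nrn1 at -0.19 log2 units (SE 0.056, adjusted p = 0.0482). Against injured mice Spred1 was at 0.52 log2 units (SE 0.14, adjusted p = 0.0199), Sgk1 at 0.46 log2 units (SE 0.054, adjusted p = 0.000158) and Csrnp1 at -0.46 log2 units (SE 0.10, adjusted p = 0.00843).

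Of 20 other clock genes, 1 rose and 3 fell with injury, against 11.9% and 11% of all genes. In antibody-treated mice 2 rose and 2 fell against uninjured (6.3% and 3.22% of all genes), and 1 rose and 2 fell against injured mice (10.9% and 10.7%). These counts are near the background. Nfil3 is also in the list of genes induced by activity or growth factors, so it is counted in both. Nfil3 rose by 0.62 log2 units (SE 0.094, adjusted p = 0.00187) with injury, and Nr1d2 fell by 0.57 log2 units (SE 0.15, adjusted p = 0.0187) and Rorb fell by 0.33 log2 units (SE 0.097, adjusted p = 0.0289). Nr1d1, a repressor within the clock, in antibody-treated mice fell by 0.33 log2 units (SE 0.062, adjusted p = 0.0041) against uninjured and fell by 0.33 log2 units (SE 0.062, adjusted p = 0.00293) against injured mice. Nfil3 was at 0.33 log2 units (SE 0.097, adjusted p = 0.0465) and Ciart at -0.36 log2 units (SE 0.10, adjusted p = 0.0406) in antibody-treated against uninjured mice. Against injured mice Bhlhe40 was at 0.28 log2 units (SE 0.061, adjusted p = 0.00662) and Nfil3 at -0.29 log2 units (SE 0.093, adjusted p = 0.0415).

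Of 19 glucocorticoid targets, 2 rose with injury (10.5%, near the 11.9% of all genes). In antibody-treated mice 7 rose against uninjured (36.8%, against 6.3% of all genes) and 8 against injured mice (42.1%, against 10.9%). None fell in any of these comparisons. Sgk1, Errfi1 and Cdkn1a are also in the list of genes induced by activity or growth factors. Of these, Sgk1 and Errfi1 are counted in both lists as higher against injured mice. Lcn2, an acute phase protein, averaged 4.05, 8.14 and 22.8 normalised CPM in the 3 groups. Lcn2 differed by 1.01 log2 units (SE 0.13, adjusted p = 0.000888) with injury, by 2.49 log2 units (SE 0.13, adjusted p = 2.92e-08) in antibody-treated against uninjured and by 1.48 log2 units (SE 0.12, adjusted p = 5.23e-06) against injured mice. Nfkbia, an inhibitor of NF-kB, rose by 0.53 log2 units (SE 0.11, adjusted p = 0.00788) with injury. Plin4 was higher in antibody-treated mice, by 0.73 log2 units (SE 0.16, adjusted p = 0.012) against uninjured and 0.82 log2 units (SE 0.16, adjusted p = 0.00386) against injured mice.

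Markers of regions and of other cells moved with the same groups. Of all genes tested, 11.9% rose and 11% fell with injury. In antibody-treated mice 6.3% rose and 3.22% fell against uninjured, and 10.9% rose and 10.7% fell against injured mice. Of the 10 neuron markers, 3 rose and 3 fell with injury. In antibody-treated mice 1 neuron marker fell and none rose against uninjured, and 5 fell and 1 rose against injured mice. Of 10 thalamic markers, 7 rose with injury and 6 in antibody-treated against uninjured mice, and their summed level was 254 to 311 normalised CPM in the uninjured, 334 to 378 in the injured and 316 to 382 in the antibody-treated libraries. Of 10 striatal markers, 4 fell with injury, with sums of 1641 to 1736, 1360 to 1388 and 1444 to 1560. In TPM the striatal sums overlapped, at 1349 to 1508, 1293 to 1448 and 1312 to 1382. Of 9 hippocampal markers, 2 rose with injury, with sums of 1490 to 1941, 1802 to 2226 and 1397 to 1935. In TPM the injured hippocampal sums lay above the others, at 2100 to 2777, 2925 to 3700 and 2092 to 2741. Of 8 markers of excitatory neurons, 5 fell and 1 rose in antibody-treated against uninjured mice, with sums of 3786 to 4260, 3532 to 4001 and 2558 to 3288. Most of these sums was Camk2a, at means of 2470, 2241 and 1760 normalised CPM. Camk2a is also in the list of upstream genes above, and the marker Nrn1 in that of activity-induced genes. In antibody-treated against injured mice, 6 of 8 fibroblast, 7 of 8 skeletal muscle and 5 of 5 red blood cell markers rose. The fibroblast sums were 138 to 150, 157 to 177 and 446 to 495, the muscle sums 59.6 to 86.7, 73.0 to 101 and 141 to 215, and the red blood cell sums 35.3 to 48.9, 45.5 to 52.2 and 145 to 272. The muscle list includes Pvalb, which is also in the list of GABA interneuron markers, so its sums are not muscle RNA alone. The median log2 fold change of the 8 muscle markers in antibody-treated against injured mice was 3.96. Of 7 neutrophil markers 3 could be tested and all 3 rose. Their sum was 0.671 to 1.41, 1.40 to 1.93 and 7.77 to 13.6, and Ly6g was at 0 in every library. Among lymphocyte markers Ms4a1 was at 0 in uninjured libraries. Of 8 microglia and macrophage markers, 3 rose and 1 fell with injury, and 2 rose in each comparison of antibody-treated mice. Their sums were 288 to 298, 315 to 332 and 335 to 359 normalised CPM, without overlap. In TPM the injured and antibody-treated sums overlapped, at 337 to 382 and 352 to 394. The sums of 7 markers of upper cortical layers were 799 to 846, 732 to 760 and 706 to 752. The part of regions, of these cells and of mitochondrial share in the values of the members was not tested.

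The members were richer in G and C than other genes, and removing a trend with base composition and length moved their fold changes. GC content was taken from the longest annotated transcript of each gene. Its median was 54.5% in the members, against 49.8% for 11105 genes with at least 100 exon reads on average. The median exon length of the members was 3053 bases against 3786. Egr4 and Jund were highest in GC and Homer1 lowest, at 36.9%. When a trend with GC content and length was removed from each library, 15 members rose and 5 fell with injury, against 6.22% and 8.44% of all genes in the same fit. Egr1 was gained as lower, at -0.17 (adjusted p = 0.00846). Of the 29 calls in that comparison, 10 were lost: Egr4, Npas4, Klf2, Klf10, Homer1, Bdnf, Dusp5, Ier3, Gadd45g and Per1. In antibody-treated against uninjured mice 14 members rose and 5 fell, with Nr4a1 lost and 9 calls gained. Calls over all genes were also more frequent there, at 8.85% higher and 10.5% lower, and 5 of 40 lower is near that share. The gained calls were Fosl2, Klf10, Arc, Homer1, Trib1 and Per1 as higher and Nptx2, Ptgs2 and Gadd45b as lower. Against injured mice 10 rose and 13 fell, against 9.37% and 8.71% of all genes. Egr4, Bdnf, Nptx2, Plk2 and Trib1 were lost, while Fosl2, Egr1, Klf2, Dusp5 and Per1 were gained as higher and Gadd45g as lower. No member that was called before and after changed direction.

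**Figure D4:**
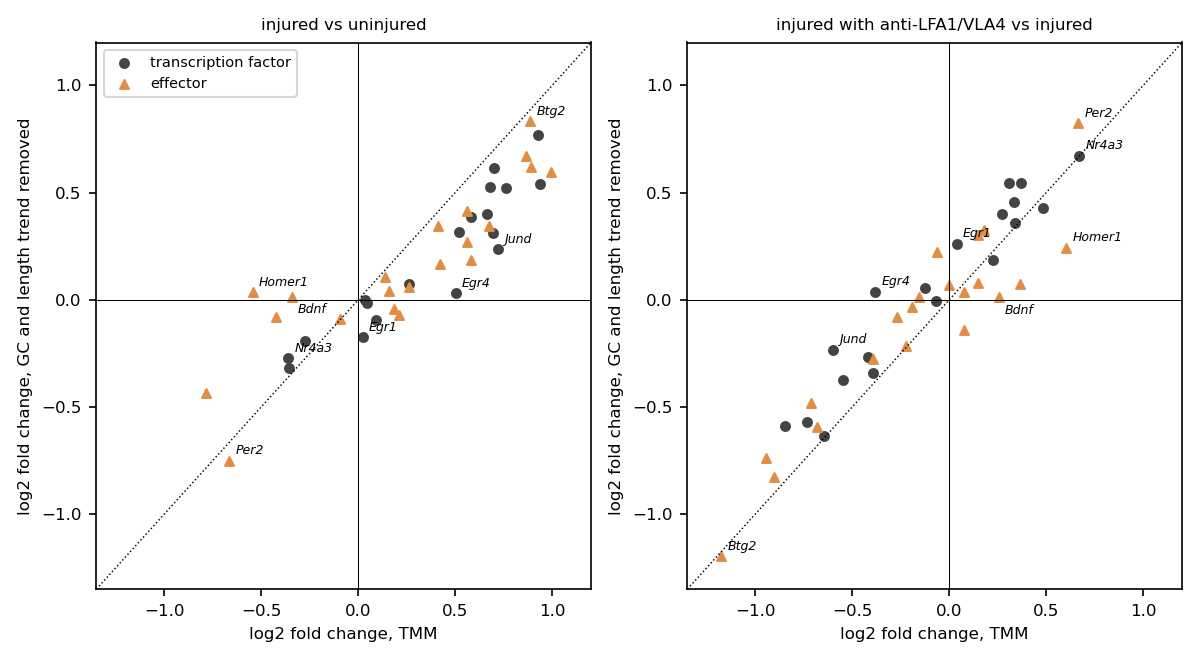
Each point is a member, with its log2 fold change after TMM scaling on the x axis and after removal of the GC and length trend on the y axis, and the dotted line marks equal values. Btg2, Per2 and Nr4a3 stay near the line, while Homer1 and Bdnf move to about 0 in the left panel.

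Across 20 alternatives per comparison, in scaling, filter, test, model, reads and libraries, 13 of the 29 calls with injury were kept in each. These were Fos, Jun, Junb, Jund, Egr2, Nr4a1, Arc, Ptgs2, Dusp1, Sik1, Btg2, Ier2 and Per2. Kept calls could change in size, and those of Jun, Junb, Jund, Ptgs2 and Ier2 shrank by over 1.5 times after trend correction. Between antibody-treated and uninjured mice 4 of 11 were kept in each, Atf3, Maff, Klf2 and Dusp5. Between antibody-treated and injured mice 10 of 22 were kept in each, Fos, Junb, Nr4a1, Nr4a3, Npas4, Arc, Dusp1, Btg2, Ier2 and Per2. Of the members, 7 fell with injury with all libraries kept and 4 when uninjured replicate 1 or 4, or injured replicate 2 or 4, was left out. Likewise 7 members were higher in antibody-treated than in injured mice, and 4 without injured replicate 2 or 3 or antibody-treated replicate 1.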

How the data were processed

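The authors deposited, per library, whole-number counts of total and unique exon, intron and junction reads per gene and TPM, as the file headers name them. Build GRCm38, Trimmomatic 0.39, FastQC 0.11.8 and CASAVA 1.8.2 come from the submitters' processing notes. Which aligner and counter were used, and whether counting was stranded, is not given in the sources used here. All 25749 gene identifiers matched GENCODE M21. The deposited counts and exon lengths gave back the deposited TPM within 0.1% in all 12 libraries.

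Total exon counts, which include reads matching several places, were filtered with edgeR's filterByExpr, leaving 14771 genes, and scaled with TMM. The 12 libraries entered a single model of group (edgeR 4.0.16, quasi-likelihood F test, R 4.3.3), which left 9 residual degrees of freedom. The 3 contrasts between groups were two-sided, and p-values were adjusted by Benjamini-Hochberg over all genes, with a threshold of 0.05. Intron counts had their own filter and model. The labels call the samples biological replicates from different mice. The code was tested on simulated counts.

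The members, roles and lists were chosen with earlier results of these data known. All 40 members are named, with a value per library where a member passed on exon reads at an absolute log2 fold change of at least 0.5 in any comparison, or averaged under 10 reads. From each pathway list the 2 largest called genes per direction are named, apart from a few that are not reported here. Of 254 listed genes 248 were in the tables. Alternatives were DESeq2 1.42.0 (size factors and Wald test), library size, other filters, unique reads, a fold of 1.2, the compared groups alone, a replicate block, a GC and length trend removed with mgcv 1.9.3, and each library left out.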

Additional observations from a re-analysis of the deposited data

Results flagged for a closer look

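In 6 of the 120 sets of 4 libraries (40 members in 3 groups) 1 library stood far from the other 3, past the critical gap of Dixon's test. Chance flags about 1 in 20 such sets. In uninjured mice Egr1 was at 233.8 normalised CPM in replicate 4, against 244 to 246 in the others. Npas4 was at 21.7 in uninjured replicate 1, against 26.6 to 27.1. Plk2 was at 183.6 in uninjured replicate 3, against 175.4 to 175.7, and Dusp4 at 6.51 in uninjured replicate 4, against 5.67 to 5.78. Trib1 was at 20.7 in antibody-treated replicate 2, against 21.6 to 21.7. Gadd45b was at 12.7 in injured replicate 1, against 14.8 to 15.03, and remained above all uninjured libraries.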

How the results depend on the processing

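Main counts in injured against uninjured mice were 22 members higher, 7 lower and 1 called on intron reads. In antibody-treated against uninjured mice they were 9, 2 and 2, and against injured mice 7, 15 and 7. A test against a fold of 1.2 left 12 higher and 2 lower with injury, 4 higher, 0 lower and 0 on introns for antibody-treated against uninjured, and 2 higher and 8 lower against injured mice. Library size alone gave 14 higher and 1 on introns for antibody-treated against uninjured mice. It moved the median of all genes with injury to 0.11, and 76.0% of called genes were then higher. With no filter 4 members were called on introns in that comparison. With only the compared groups in the model 2 were called on introns with injury, 0 in antibody-treated against uninjured mice, and 4 were higher in antibody-treated against injured mice. Without uninjured replicate 1 and antibody-treated replicate 4 together, 1 was called on introns in antibody-treated against uninjured mice. The cause of these shifts was not tested, apart from the larger fold asked.

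Leaving out 1 library gave ranges of 19 to 22 higher, 4 to 8 lower and 1 to 1 on introns with injury. They were 6 to 10, 2 to 3 and 0 to 3 for antibody-treated against uninjured, and 4 to 9, 11 to 15 and 4 to 8 against injured mice. Fewer samples then enter.

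Replicate numbers did not pair the samples: correlations of same-numbered deviations ran from -0.53 to 0.43. With a replicate block 20 were higher and 6 lower with injury. It left 0 on introns for antibody-treated against uninjured mice, and 4 higher in antibody-treated against injured mice.

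With the GC and length trend removed 14 were higher and 5 lower in antibody-treated against uninjured mice. With injury the log2 fold changes of Egr1, Homer1 and Bdnf changed sign to -0.17, 0.035 and 0.015. Against injured mice those of Egr4 and Per1 changed sign in antibody-treated mice to 0.037 and 0.22. With the replicate block added to the trend removal, these were -0.17, 0.035 and 0.013, then 0.036 and 0.22. That fit left 4 lower and 0 on introns for antibody-treated against uninjured, 0 on introns with injury and 2 on introns against injured mice. Of 1098 uncalled values, 81 had the other sign. On intron reads 20 members had too few for a test, some of them because the gene has 1 exon.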
